A study of Arabidopsis thaliana with 12 samples.

Results

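The open chromatin sites described here are the Tn5 hypersensitive sites (THSs) of Arabidopsis thaliana seedlings whose midpoint fell in the 3′ untranslated region (3′ UTR) of a protein-coding transcript. A THS was taken when its midpoint lay in an exon downstream of the coding sequence, in no coding exon or 5′ UTR of any gene, and more than 300 bp from every protein-coding transcription start site (TSS). Of 23226 THSs, 1145 met this rule, or 4.93% (95% Wilson interval 4.66 to 5.22). The 3′ UTRs held the midpoints of 1778 THSs in all. Of these, 142 also lay in a coding exon, 41 lay in a 5′ UTR, and 450 lay at most 300 bp from a TSS. These 3 sets were left out.

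The assay was ATAC-seq, which uses the Tn5 transposase to cut accessible DNA and to tag it for sequencing. The material was nuclei of whole seedlings, a mixture of all seedling tissues, at 10 days after germination. The 12 samples came from 6 genotypes with 2 biological replicates each, all in the Col-0 ecotype: wild type, the atbmi1abc triple mutant (bmi1abc), the clf28swn7 double mutant, emf1-2, lhp1 and the ring1ab double mutant. The mutations affect different Polycomb group (PcG) components, and ring1ab is a weak mutant that keeps some RING1 activity. The list used here joins the sites of all 6 genotypes as coordinates and gives neither genotype, replicate, signal nor depth. It holds more regions than the study kept after a filter on low signal, so weak sites that the study dropped may be among those counted here. With this list genotypes were not compared, a site may have been open in only some of them, and no value below has a replicate error. Intervals cover counting error only, since neighbouring sites and genes of 1 family are not independent replicates.

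The 3′ UTR lies between the stop codon and the polyadenylation site and carries signals for 3′ end processing and mRNA stability. In plants the DNA at gene ends can also act as a promoter. At FLC, the MADS-box repressor of flowering that PcG proteins silence after cold, the antisense transcripts called COOLAIR start at the 3′ end, and at DOG1, a regulator of seed dormancy, an antisense transcript starts near the last exon. The G-box is a palindromic hexamer bound by bHLH factors such as the PIFs and by bZIP factors. The W-box core is bound by WRKY factors, GA repeats by BASIC PENTACYSTEINE proteins and telo-boxes by factors that recruit PcG complexes.

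Of the 5 motifs counted below, the G-box had the largest ratio of its share in 3′ UTR THSs to its share in 3′ UTR sequence without a THS. For this reason the surroundings of G-boxes at 6 sites are shown first, each read 5′ to 3′ on the plus strand from the RefSeq assembly TAIR10.1, with the G-box in capitals. All 6 host genes lie on the plus strand. At most 2 G-boxes lay within the 200 bp centred on any of the 1145 midpoints, and 10 sites had 2. The sites shown are the first 6 of these by position in the genome. The hosts are AT1G66880, a protein kinase superfamily gene, NAC032, a NAC transcription factor, AGP9, an arabinogalactan protein of the cell wall, ATL2, a RING-type ubiquitin ligase, AT3G28650, a C1 domain protein, and AT3G48240, an Octicosapeptide/Phox/Bem1p protein.
AT1G66880, chr1:24955578-24955607: atgtggctatgtCACGTGtgtgcaaatgta
AT1G66880, chr1:24955643-24955672: atgtggctatgtCACGTGtgtgcaaatgta
NAC032, chr1:29100975-29101004: tttctgagttgtCACGTGcgattagagtta
NAC032, chr1:29101026-29101055: tgtctgttttcgCACGTGtcgggtagccgt
AGP9, chr2:6400413-6400442: gagtgctgtagtCACGTGactttgtcagtc
AGP9, chr2:6400433-6400462: tttgtcagtctgCACGTGaataatttaata
ATL2, chr3:5693788-5693817: taggtgacttgtCACGTGttggtgtctgat
ATL2, chr3:5693891-5693920: ggcgcccaaggaCACGTGgcgtaaactgag
AT3G28650, chr3:10737758-10737787: tatacaggaccaCACGTGacactcacacgt
AT3G28650, chr3:10737771-10737800: acgtgacactcaCACGTGcgacatcaagtg
AT3G48240, chr3:17868280-17868309: cagatgcgagtaCACGTGtgtattgtgggg
AT3G48240, chr3:17868319-17868348: tgtgtatcctcaCACGTGtacctctgttag

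Within each pair the flanks differed, apart from AT1G66880, where the same 30 bases occurred at both places. The closest pair was that of AT3G28650, and its G-boxes lay 1 and 14 bp to the left of the site's midpoint. In NAC032 they lay 1 and 52 bp to its left. The NAC032 site covered 224 bp, was centred 60 bp past the stop codon of a 778 bp 3′ UTR and reached into the coding exon. The ATL2 site (316 bp, centred 40 bp past the stop codon) and the AT3G28650 site (210 bp, 60 bp past the stop codon) also overlapped a coding exon, whereas the 284 bp site of AGP9 was centred 260 bp past the stop codon and lay wholly in 3′ UTR.

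The 1145 sites covered 361077 bp. They had 1127 host genes: 1097 genes held 1 site, 29 held 2 and 1 held 3, and 13 sites lay in the 3′ UTRs of 2 genes. Of 23788 protein-coding genes with an annotated 3′ UTR, 4.74% hosted a site. The bases in which a midpoint could meet the rule, called eligible bases here, came to 6152749 of 7948730 bp of 3′ UTR. Over them the density was 186 sites per Mb, beside 195 THSs per Mb over the 5 chromosomes, 92.5 per Mb in coding exons and 484 per Mb in the 1 kb upstream of TSSs. The density lay between 173 and 205 per Mb on every chromosome.

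In length the 3′ UTR sites were like the other 22081 THSs. The median was 253 bp, with quartiles of 156 and 411 bp, beside a median of 254 bp and quartiles of 162 and 404 bp. THSs of coding exons were shorter, with a median of 154 bp, and those up to 1 kb upstream of a TSS, called promoter THSs here, were longer, with a median of 292 bp. Of the 3′ UTR sites 36.8% (34.0 to 39.6) were shorter than 200 bp, 36 were shorter than 50 bp, and 17 reached 1000 bp. Another THS lay within 1 kb of 47.0% of them (44.1 to 49.9), against 42.0% (41.3 to 42.6) of the other THSs. For THSs of coding exons this share was 44.3% (42.6 to 46.1), and its interval overlapped that of the 3′ UTR sites. For promoter THSs it was lower, at 35.9%.

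The 10 longest sites ranged from 1066 to 1550 bp. The longest stretched from the coding exon of AT1G73470, an uncharacterized protein, past its 3′ end, and its midpoint lay 507 bp upstream of the TSS of the next gene. At ZIP5, a zinc transporter gene, the site covered 1504 bp, began in the coding exon and ended before the gene did. At AT1G75800, a thaumatin family gene, it covered 1481 bp. The others were those of AT3G63540 (1353 bp), a thylakoid lumenal protein, AT4G33970 (1294 bp), a leucine-rich repeat protein, RALF23 (1189 bp), a RALF signalling peptide, AT3G52710 (1155 bp), AT1G18010 (1130 bp), AT3G18050 (1073 bp) and DELTA-OAT (1066 bp), which encodes ornithine aminotransferase. All of them but the ZIP5 site covered the 3′ end of the host gene.

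AT2G45300 was the gene with 3 sites. Its product is annotated as an enolpyruvate transferase family protein. The mRNA that hosts them has a 3′ UTR of 1384 bp in 3 exons, and sites of 213, 454 and 443 bp were centred 528, 774 and 1056 bp past the stop codon. None of the 3 reached a coding exon or the gene's 3′ end.

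Genes from lists of regulators showed where such sites lie. FLC (AT5G10140) held a site of 408 bp at chr5:3173183-3173590 that covered the gene's 3′ end. Its midpoint lay 336 bp past the stop codon of a 342 bp 3′ UTR, 5 bp from the end of the gene. The annotated antisense noncoding RNA gene AT5G01675 starts 16 bp from that midpoint. The 200 bp window there held 6 overlapping matches to the GA repeat and no G-box. DOG1 (AT5G45830) held 2 sites. One, of 255 bp at chr5:18589501-18589755, covered the end of the last coding exon and was centred 40 bp past the stop codon. The other, of 162 bp at chr5:18590051-18590212, lay in the longer 3′ UTR of another mRNA of the gene, 83 bp past its stop codon. Neither DOG1 site had an annotated noncoding RNA start within 300 bp.

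AP1, a MADS-box gene of floral meristem identity, held a 398 bp site over its 3′ end, and its midpoint lay 28 bp before that end. LD, a homeodomain gene of the autonomous flowering pathway, held a 103 bp site that began in the coding exon and was centred 17 bp past the stop codon. EMF1, a plant PcG protein and one of the genes mutated in this study, held a 145 bp site in the second exon of its 3′ UTR, 298 bp past the stop codon. No genotype is attached to that site.

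**Figure D1:**
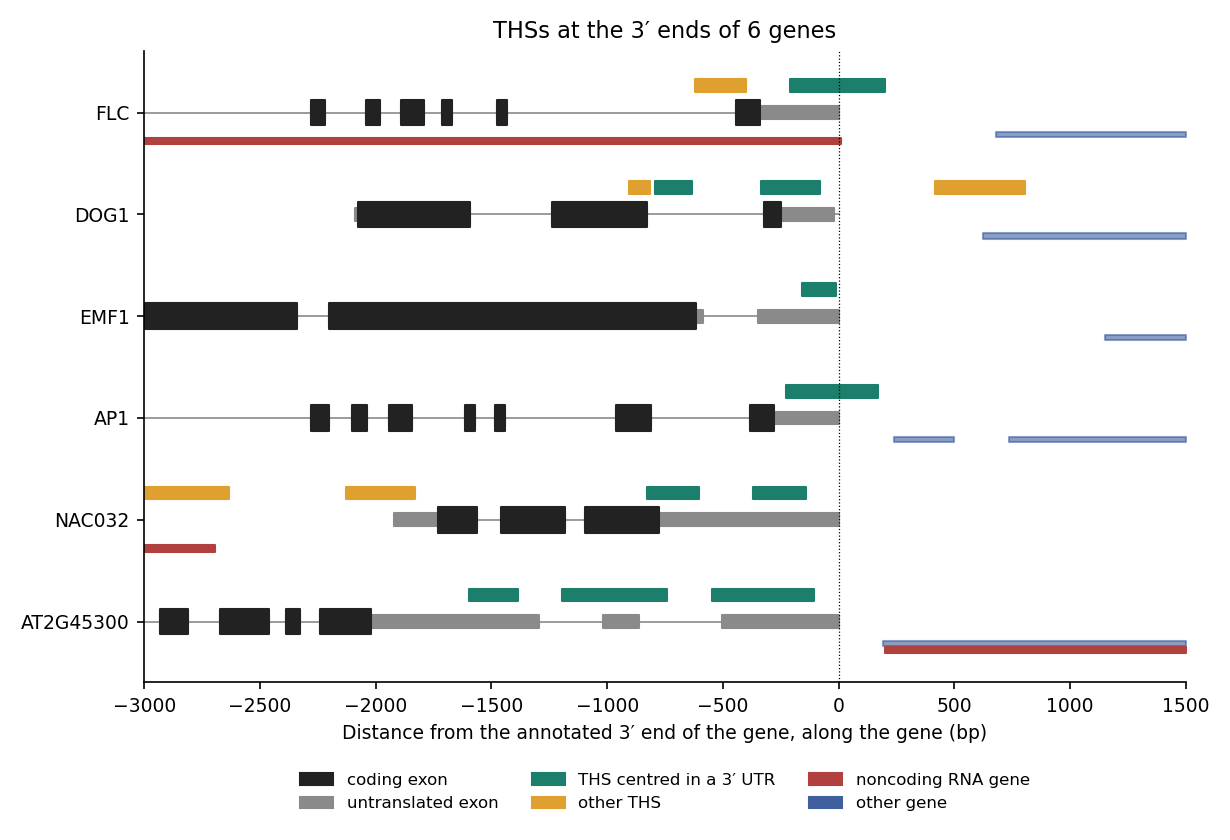
Exons of the mRNA with the longest coding sequence, THSs and neighbouring genes at the 3′ ends of FLC, DOG1, EMF1, AP1, NAC032 and AT2G45300, drawn to scale along each gene with the annotated gene end at 0 bp. The sites of FLC and AP1 cross the gene end, those of EMF1 and NAC032 do not, and AT2G45300 has 3 sites.

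The light signalling list gave 4 hosts. PIF3 and PIL5 (PIF1), bHLH factors that phytochromes bind and destabilise in the light, held sites of 234 and 273 bp, centred 236 and 199 bp past the stop codon. The PIF3 site covered the gene's 3′ end, and the PIL5 site did not. CRY1, a blue-light receptor, held a 356 bp site over its 3′ end. PHOT2, the phototropin of strong blue light, held a 366 bp site that overlapped a coding exon and was centred 94 bp past the stop codon of an mRNA with a 3′ UTR of 3118 bp, 3023 bp before the end of the gene. The PHOT2 site is shared: it also lay in the 3′ UTR of AT5G58150, a leucine-rich repeat kinase gene. None of these 4 windows held a G-box.

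Beside the 4.74% of all genes with a 3′ UTR, 4 of 23 light signalling genes hosted a site (17.4%, interval 6.98 to 37.1), 3 of 22 flowering genes (13.6%, 4.75 to 33.3), 1 of 15 PcG genes (6.67%, 1.19 to 29.8) and 0 of 15 circadian clock genes (upper bound 20.4%). Among the 3 matched genes known for an antisense transcript from the 3′ end, FLC and DOG1 hosted sites. These lists are short, and their intervals are wide. The light signalling count includes PHOT2, whose site is shared with AT5G58150. In the larger lists, taken from product names, 15 of 128 bHLH genes (11.7%, 7.23 to 18.4) and 11 of 103 homeobox genes (10.7%, 6.07 to 18.1) hosted a site, and both intervals lay above 4.74%. At the other end were 26 of 819 protein kinase genes (3.17%, 2.18 to 4.61) and 9 of 373 ribosomal protein genes (2.41%, 1.27 to 4.52). The intervals of the other product lists held 4.74%. No interval is adjusted for the number of lists looked at, and some lists share genes. The lists differed in room for a site: eligible bases averaged 309 bp per bHLH gene, 286 bp per homeobox gene, 229 bp per protein kinase gene and 253 bp per ribosomal protein gene, against 259 bp over all genes. The part of these differences in the shares was not tested.

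The bHLH hosts included MYC3 (477 bp), a factor of jasmonate signalling, BIM1 (173 bp), a partner of brassinosteroid factors, UNE10 (152 bp), a relative of the PIFs, UNE12 (616 bp), IBH1 (126 bp), an inhibitor of cell elongation factors, and HEC3 (362 bp), a factor of carpel development. Among the homeobox hosts were the class III HD-ZIP gene PHB (225 bp), the class II HD-ZIP genes HB-2 (1048 bp) and HAT2 (750 bp), ANL2 (675 bp), and the KNOX genes KNAT4 (136 bp), KNAT5 (86 bp) and KNAT6 (144 bp). These examples were chosen after their values had been seen. Among the 11 homeobox hosts HB5 had a G-box in its window. None of the 15 bHLH hosts found by product name had one, but the name search does not find every bHLH gene: PIF3 and PIL5 are not among the 15, nor is BEE1, a bHLH gene of brassinosteroid responses whose 444 bp site had 1 G-box in its window.

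**Figure D2:**
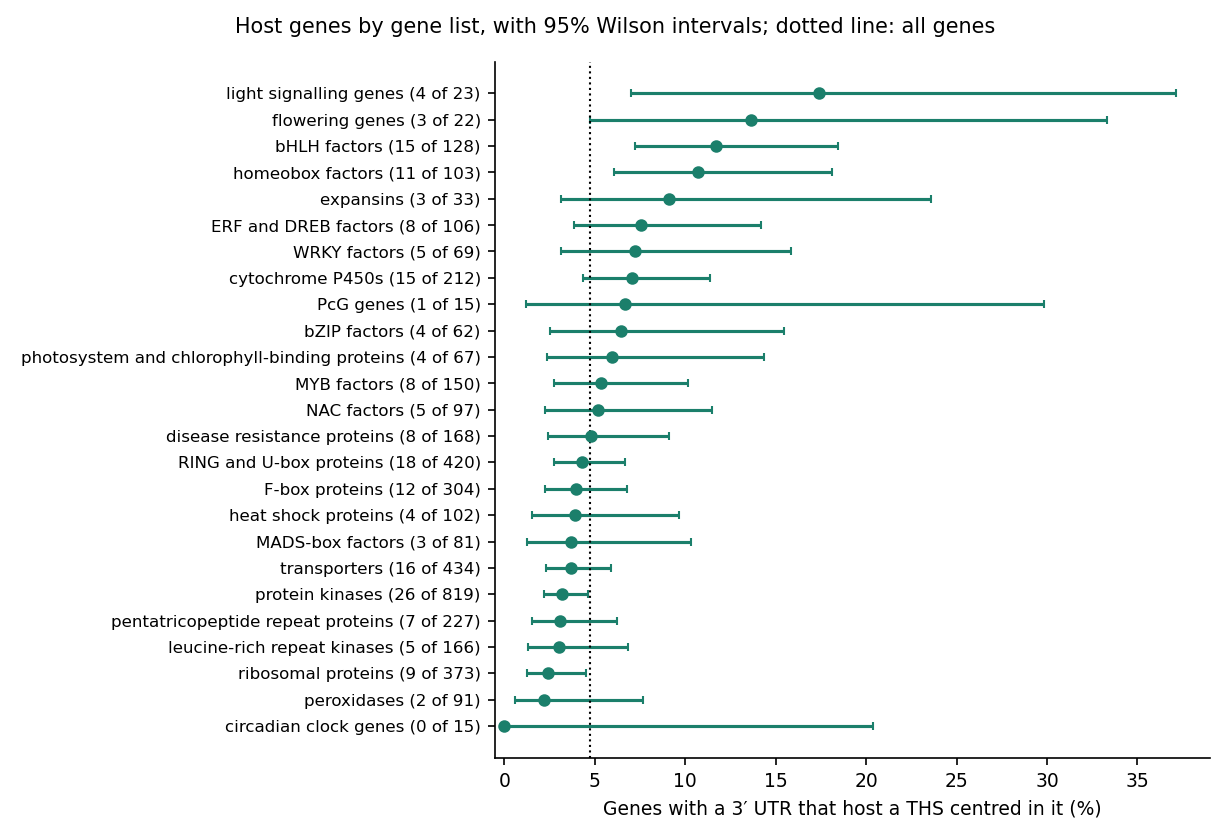
Percent of the genes of each list with an annotated 3′ UTR that host a THS centred in it, with 95% Wilson intervals; the dotted line marks the 4.74% of all genes. The points run from 0% of the circadian clock genes to 17.4% of the light signalling genes, and bHLH and homeobox factors lie at 11.7% and 10.7%.

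Within the 3′ UTR the sites lay toward the transcript end. The median midpoint lay 218 bp past the stop codon, with quartiles of 109 and 331 bp, and at 0.56 of the way through the 3′ UTR. Of the 1145 sites, 1006 lay in the 3′ UTR of the host mRNA with the longest coding sequence, which was used for densities because its bases can be counted once per gene. They gave 1018 pairs of site and host. Each 3′ UTR was divided into 10 equal parts from the stop codon to the transcript end. Of the pairs 58.8% (55.8 to 61.8) lay in the last 5 parts, which held 47.1% of the eligible bases. The density was 109 per Mb in part 1, 161 per Mb in part 5, 208 per Mb in part 6 and 251 per Mb in part 10. The density over the last 5 parts was 1.61 times that over the first 5 (counting interval 1.42 to 1.82).

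Sites often extended beyond the 3′ UTR. The gene's 3′ end was covered by 39.7% of them (36.9 to 42.5), a coding exon was overlapped by 34.6% (31.9 to 37.4), both by 13.8% and neither by 39.6%. The median site had 90.9% of its bases in 3′ UTR.

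The 3′ UTRs that held sites were long. Over the 1018 pairs the median 3′ UTR length was 363 bp, against 246 bp over all genes with a 3′ UTR, both taken from the mRNA with the longest coding sequence. Long 3′ UTRs offer more bases, but the density per eligible base was also higher in them. It was 84.4 per Mb where the 3′ UTR was at most 150 bp long, 109 per Mb from 150 to 250 bp, 186 per Mb from 250 to 400 bp, 246 per Mb from 400 to 700 bp and 255 per Mb above 700 bp. In the same mRNAs the 3′ UTR had more than 1 exon for 7.17% of the pairs (5.74 to 8.92) and 5.20% of genes.

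Site density differed with the orientation of the next gene. The next protein-coding gene lay on the same strand as the host, so that the host's end faced a start, for 63.0% of sites (60.1 to 65.7), against 52.6% of all genes with a 3′ UTR. This share depended on the TSS distance of the rule, and at more than 1000 bp it was 52.1% (48.5 to 55.6). Per eligible base, the density was 227 per Mb where the next gene lay on the same strand and 132 per Mb where it lay on the opposite strand, a ratio of 1.72 (1.51 to 1.95). The same order held in each class of 3′ UTR length: 117 against 63.0 per Mb up to 150 bp, 158 against 69.4 from 150 to 250 bp, 228 against 141 from 250 to 400 bp, 280 against 206 from 400 to 700 bp and 317 against 185 above 700 bp. The classes up to 150 bp rest on 16 and 13 pairs.

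**Figure D3:**
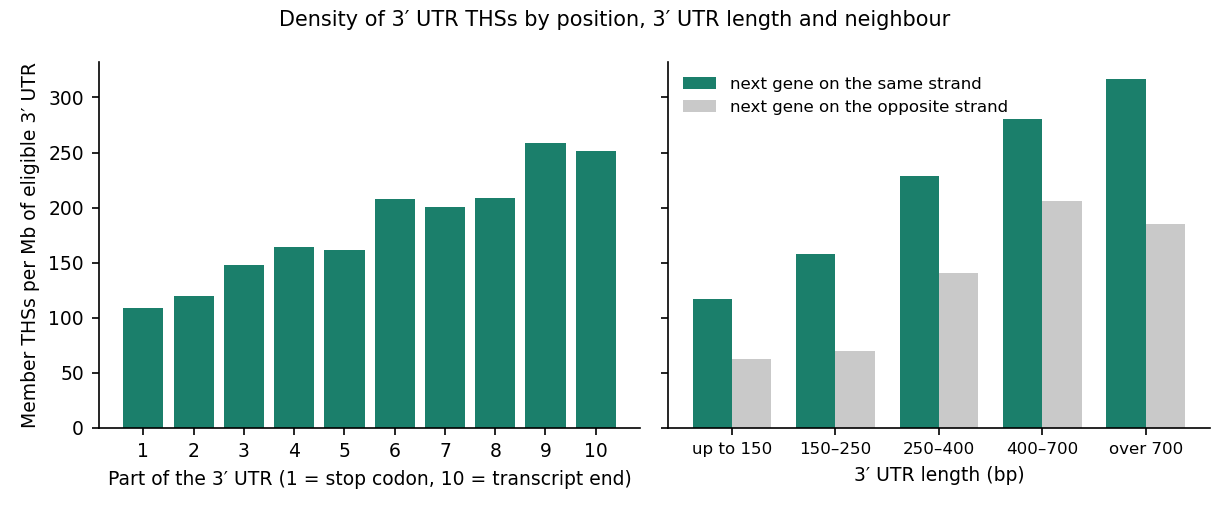
Left, 3′ UTR THSs per Mb of eligible bases in each of 10 equal parts of the 3′ UTR, from 109 in part 1 to 251 in part 10; right, the same density by 3′ UTR length in bp for hosts whose next gene lies on the same strand (green) or on the opposite strand (grey). The green bar is the higher one in every class.

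Nearness to the next gene's start was compared directly. Of the 1145 sites 278, or 24.3% (21.9 to 26.8), lay up to 1 kb upstream of a protein-coding TSS, and 22.9% of the eligible bases did. The density was 198 per Mb in those bases and 183 per Mb in the others. It was 230 per Mb from 300 to 400 bp upstream, 169 per Mb from 800 to 1000 bp and 178 per Mb beyond 3000 bp. When only bases and midpoints more than 1000 bp from every protein-coding TSS were kept, the densities were 254 per Mb with the next gene on the same strand and 137 per Mb with it on the opposite strand. This cut fell unequally: it kept 1368748 of 2830373 eligible bp on the same strand and 2321762 of 2840242 bp on the opposite strand. The gap to the next gene also differed: its median over all genes was 703 bp on the same strand and 59 bp on the opposite strand, and over the sites 1120 and 485 bp. The part of the gap in the densities was not tested.

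The sites nearest to the limit of the rule were those of SK 11, a shaggy-related kinase, and DL1, a dynamin-like protein, both with midpoints 301 bp from the nearest TSS. THSs in the 3′ UTRs of AT1G77890, at 298 bp, and AT3G18930, at 299 bp, fell just outside. Farthest from any protein-coding TSS were those of AT3G59020, an ARM repeat protein, at 5201 bp, ARL2, an ARG1-like protein, at 4957 bp, AT1G31540, a TIR-NBS-LRR disease resistance gene, at 4813 bp, TLL1, a triacylglycerol lipase-like gene, at 4769 bp, and NEK6, a protein kinase gene, at 4643 bp. The median distance was 1369 bp.

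A THS at the start of the gene was only slightly more frequent among host genes. The TSS or the 1 kb before it overlapped another THS in 55.6% of the 1127 host genes (52.7 to 58.5) and in 50.9% of all genes with a 3′ UTR (50.2 to 51.5), a ratio of 1.09 (1.01 to 1.19). In both shares the 3′ UTR sites of any gene were not counted as such a THS. With regions of at least 200 bp the ratio was 1.05 (0.937 to 1.18), so the difference was then within counting error.

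Annotated noncoding RNA genes were found at a small share of the sites. The midpoint lay inside one for 31 sites, or 2.71% (1.91 to 3.82), and 28 of these 31 sites lay in one antisense to the host. Of the eligible bases 1.50% lay inside one. When the rule used TSSs of all gene types, the share of sites was 0.559% (0.256 to 1.21). A noncoding RNA gene started within 300 bp of the midpoint for 65 sites, or 5.68% (4.48 to 7.17), and of 3.32% of the eligible bases. The site itself covered such a start in 37 cases, 24 of them antisense to the host. Over the eligible bases neither the strand of the noncoding RNA genes nor covered starts were counted. The antisense counts therefore have no background share and are not read as a trait of these sites. Of the 37 genes 26 are annotated as lncRNA, 6 as ncRNA, 2 as tRNA, and 1 each as snRNA, snoRNA and misc_RNA.

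The 5 longest of these 37 sites showed both orientations. At AT2G42240, an RNA-binding protein gene, a 931 bp site covered the start of the lncRNA gene AT2G42247 on the same strand. At EXO70H7, an exocyst subunit gene, an 887 bp site covered the start of the antisense lncRNA gene AT5G59732, 4 bp from the midpoint. At RALFL33, a RALF peptide gene, the site measured 852 bp and the antisense lncRNA gene AT4G06335 started 289 bp from its midpoint. At UGT74B1, a glucosyltransferase gene of glucosinolate synthesis, a 727 bp site covered the start of the snRNA gene U5.5, which has the strand of its host. At SAP7, a zinc finger protein gene, a 686 bp site covered the start of the antisense ncRNA gene AT4G05940.

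Motifs were counted on both strands of the 200 bp window at each midpoint. The letters were CACGTG for the G-box, TTGACC for the W-box core, GAGAGA for the GA repeat, AAACCCTA for the telo-box and AATAAA for the poly(A) signal. None of these words contains another. W-boxes with other letters than TTGACC were not counted, so the W-box shares are those of this word alone. The G-box was found in 84 of 1145 windows of 3′ UTR sites, or 7.34% (5.96 to 8.99). In 18594 windows of 3′ UTRs without a THS it was found in 0.866% (0.742 to 1.01), a ratio of 8.47 (6.51 to 11.0). Those windows lay at the middle of the longest 3′ UTR exon and were not matched to the sites for position. The site windows can hold coding sequence or sequence beyond the gene end, and the part of position in the ratio was not tested. The share in THSs of coding exons was 7.61% (6.73 to 8.59), and that in promoter THSs was 12.2% (11.6 to 12.8), above the interval of the 3′ UTR sites. Sites up to 1 kb upstream of a TSS and the other 3′ UTR sites had similar shares, 7.91% (5.28 to 11.7) and 7.15% (5.62 to 9.06).

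The windows differed in base composition, with a median GC content of 35% at the 3′ UTR sites and 32% in 3′ UTR windows without a THS. Within windows of 25 to 30% GC the G-box was found at 2 of 118 sites, or 1.69% (0.466 to 5.97), and in 0.904% (0.674 to 1.21) of windows without a THS, and these intervals overlapped. From 30 to 35% GC the shares were 6.42% (4.42 to 9.24) and 0.626% (0.480 to 0.815), from 35 to 40% GC 7.49% (5.33 to 10.4) and 1.31% (0.985 to 1.74), and from 40 to 45% GC 10.7% (6.72 to 16.7) and 1.50% (0.788 to 2.82). Palindromes of the same bases differed less. CAGCTG was found in 1.83% (1.20 to 2.79) of the sites and 1.41% (1.25 to 1.59) of windows without a THS, GTGCAC in 1.83% (1.20 to 2.79) and 0.930% (0.802 to 1.08), and GACGTC, the core of another bZIP motif, in 1.66% (1.06 to 2.58) and 0.769% (0.653 to 0.905). These GC classes and palindromes were added after the G-box share had been seen.

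G-boxes were denser around the midpoints of THSs than 400 to 500 bp away. Within 100 bp of the midpoint they occurred at 0.428 per kb in 3′ UTR sites, and 400 to 500 bp away at 0.205 per kb. In promoter THSs the values were 0.726 and 0.123 per kb. In 3′ UTR windows without a THS they were 0.0471 per kb near the midpoint and 0.123 per kb away from it. In 3′ UTR sites the excess was spread around the midpoint and uneven. The highest of the 25 bp bins was that from -125 to -100 bp, at 0.699 per kb, and the bin from 0 to 25 bp held 0.314 per kb. The sites with a G-box had a median length of 310.5 bp, beside 253 bp over all 3′ UTR sites.

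**Figure D4:**
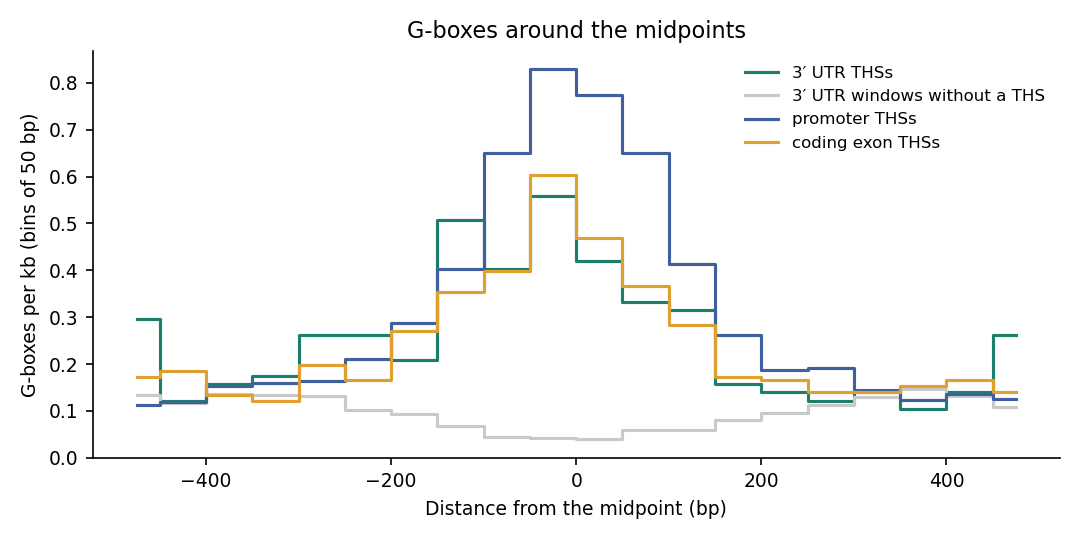
G-boxes per kb in bins of 50 bp by distance from the midpoint, for 3′ UTR THSs (green), promoter THSs (blue), coding exon THSs (orange) and 3′ UTR windows without a THS (grey). Within 100 bp the mean is 0.428 per kb for 3′ UTR THSs and 0.0471 per kb for windows without a THS.

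The other motifs differed less. The W-box core was found at 9.43% of the sites (7.87 to 11.3), against 5.65% (5.33 to 5.99) of 3′ UTR windows without a THS and 12.2% of promoter THSs. GA repeats were found at 15.7% (13.7 to 17.9) against 16.6% (16.1 to 17.2). The telo-box was rare, in 11 windows or 0.961% (0.537 to 1.71), against 1.73% (1.55 to 1.93), and 2.51% of promoter THSs. The poly(A) signal was found at 38.8% of the sites (36.0 to 41.6), below the 45.5% (44.8 to 46.2) of windows without a THS. On the host's strand alone the shares were 19.8% (17.6 to 22.2) and 23.5% (22.9 to 24.1). In coding exon THSs the share on either strand was 8.89% (7.94 to 9.94). The parts of position and base composition in the differences of these motifs were not tested.

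**Figure D5:**
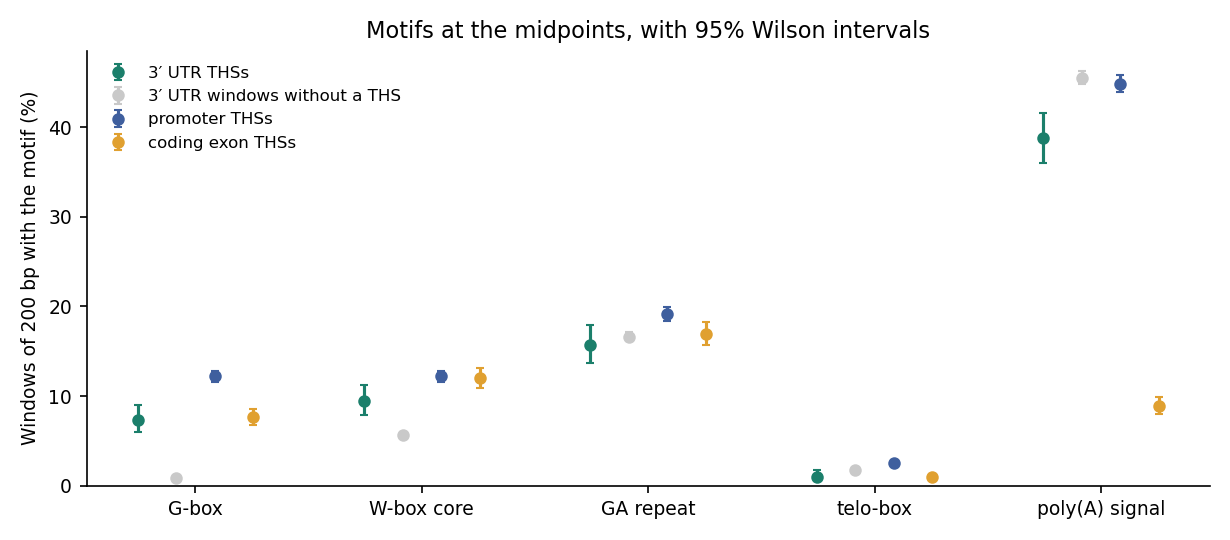
Percent of 200 bp windows at the midpoint that hold each motif on either strand, with 95% Wilson intervals, in 4 classes. For the G-box the 3′ UTR THSs (7.34%) lie near the coding exon THSs (7.61%) and above the 3′ UTR windows without a THS (0.866%).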

How the data were processed

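The authors trimmed ATAC-seq reads (Trimmomatic), mapped them to TAIR10 without organelle genomes (bowtie), removed duplicates (Picard), called peaks per replicate (MACS2), intersected replicates and merged the peaks of all genotypes. The deposited list holds region coordinates only, with no score or depth, so the precision per sample is unknown. The methods describe a further filter on low signal, after which they state fewer regions than are listed, so the list was assumed to precede it. The authors' supplementary tables, 1 of which places THSs by genotype, were not used here. Intersecting can leave short pieces, and merging hides the genotype. The deposited coordinates were placed on RefSeq TAIR10.1. The TAIR10 sequence was not used here, so the fit was checked: 0 regions passed a chromosome end, and on each chromosome G-boxes were 4.14 to 5.63 times as frequent at THS midpoints as 1 kb away.

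Starts of all 48147 protein-coding mRNAs served as TSSs. For genes with several mRNAs, the host mRNA was the one with the longest coding sequence whose 3′ UTR held the midpoint. Windows without a THS were centred in the longest 3′ UTR exon of each gene. Shares carry 95% Wilson intervals. No test was run, because regions and genes are not replicates. Named genes are the 10 longest sites, genes with at least 3 sites, hosts from the short lists, 6 sites with the most G-boxes, the nearest sites on each side of 300 bp, the 5 longest over a noncoding start and the 5 farthest from a TSS. Members and lists were chosen with earlier results of these data known. BMI1B, BMI1C, RVE6 and CDF5 were not matched. Python 3.11.15 and numpy 2.4.6 were used. The code was tested on simulated data, where it classed 200 of 200 regions as planted. Alternatives varied the region length, merging, TSS distance and set, placement, transcript, motif window and promoter span.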

Additional observations from a re-analysis of the deposited data

How the results depend on the processing

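No paired analysis was possible because the list carries no sample. The list is a merge over genotypes with no depth, so no value has a replicate error. Of 184 recomputed values 149 stayed within the main interval (for the number of sites, within 1.5 times). The 4 ratios were recomputed in ways chosen after seeing the data: 35 of their 36 values stayed within, and each ratio stayed above 1. Set against a fixed comparator, 2 shares changed sides at a TSS distance of 1000 bp: sites with the next gene on the same strand (52.1%, against 52.6% of all genes) and sites with a GA repeat (17.5%, against 16.6% of windows without a THS). The ratio for the next gene's strand ranged from 1.68 to 1.85, that for the G-box from 7.36 to 10.4, and that for a THS at the host's start from 1.05, where its interval held 1 (regions of at least 200 bp), to 1.12. With only regions of at least 200 bp, 724 sites remained, the median length was 356 bp, 51.7% covered the gene end, 44.3% overlapped a coding exon, the median relative position was 0.60, 41.5% of host genes had a THS at their start (39.5% of all genes), 3.04% of genes were hosts, 42.5% of sites had a poly(A) signal, and the density ratio of the last to the first 5 parts of the 3′ UTR was 1.88. The cause was not tested, apart from the longer regions by construction. At a TSS distance of 500 bp, 4.40% of THSs met the rule, 58.9% had the next gene on the same strand, 16.8% had another TSS within 1 kb and 4.23% of genes were hosts. At 1000 bp these values were 3.30%, 52.1%, 0% by construction and 3.18%. With TSSs of all gene types 4.62% of THSs met the rule and 4.43% of genes were hosts. Then 0.559% of sites (0.256 to 1.21) lay inside a noncoding RNA gene, below the 1.50% of the main eligible bases. That rule leaves out sites near noncoding starts, and the share of eligible bases was not recomputed under it. With placement by bases, 36.2% covered the gene end and 30.2% overlapped a coding exon. With only the mRNA of longest coding sequence, 4.30% of THSs met the rule and 4.25% of genes were hosts. Motif shares scale with the window. In 100 bp they were 4.10% (G-box), 4.89% (W-box core), 7.34% (GA repeat), 0.349% (telo-box) and 22.7% (poly(A) signal), and in 300 bp 10.8%, 14.6%, 24.3% for the first 3 and 52.5% for the poly(A) signal. A promoter span of 500 bp gave a THS at the start of 48.3% of host genes (44.1% of all genes with a 3′ UTR), and 2 kb gave 66.2% (60.4%).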

Other observations

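Other gene families also held 3′ UTR THSs, named here after their values had been seen. Of 97 NAC genes 5 hosted one (5.15%, interval 2.22 to 11.5): NAC032, ATAF1, RD26, NAC050 and NAC003, the last through a region of only 8 bp. NAC032, ATAF1 and RD26 encode stress-related factors, and the share of such genes in the whole list was not counted. NAC032 held a further site of 229 bp without a G-box, centred 522 bp past the stop codon, ATAF1 held one of 601 bp and RD26 one of 208 bp. Among cytochrome P450 genes 15 of 212 hosted a site (7.08%, 4.33 to 11.3). DWF4, which encodes a hydroxylase of brassinosteroid synthesis, held 2 sites of 244 and 894 bp. CYP90D1, an enzyme of the same pathway, held 1 of 141 bp with a G-box in its window. Of 106 ERF and DREB genes 8 hosted a site (7.55%, 3.87 to 14.2), among them ORA47 (193 bp) and ERF6 (372 bp). The intervals of all 3 lists held the 4.74% of all genes.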
